A study of Aspergillus niger with 27 samples.

Results

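The glucose section of pie-plate colonies of the filamentous fungus Aspergillus niger was compared compartment by compartment, to ask whether mycelium over the same sugar expresses different genes where its neighbours differ. Its 9 libraries, out of 27 in all, were taken by their labels, which give glucose as the substrate, compartment 1, 2 or 3, and plate A, B or C. A pie-plate is a dish of liquid medium split by walls into wedge-shaped compartments, with a perforated membrane on top that proteins and metabolites can cross and hyphae cannot. Per the labels' protocols, 1 colony was inoculated at the centre of each plate and grew outward over glucose in compartments 1 to 3, sugar beet pulp in 4 to 6 and wheat bran in 7 to 9. RNA came from the mycelium cut out over each compartment and was sequenced as full-length cDNA on an Ion Proton instrument. The 3 groups thus shared the fungus, the glucose medium and, plate by plate, the same colony, and differed in the compartment number alone. Within a section 1 compartment lies between neighbours of its own substrate and the others meet a different substrate on 1 side, but the labels do not tie compartment numbers to places on the plate. Neither the strain, nor the age of the colonies, nor the concentration of glucose is stated in the labels used here.

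Glucose is a sugar that the fungus takes up directly, and in Aspergillus it represses many genes for the use of other carbon sources, a response known as carbon catabolite repression. Sugar beet pulp is rich in pectin and wheat bran in arabinoxylan and starch, and each induces its own set of secreted enzymes and transporters in this fungus. Sugars and signals can travel through hyphae, so mycelium over a compartment is not limited to what lies under it.

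The glucose libraries held 12822917 to 19406653 read counts. The files name genes by numbered IDs beginning with NRRL3 and do not pair them with gene names, so the mycelium label could not be checked against markers and no gene below is given a role. Plate B stood apart from plates A and C. Its compartment 2 and 3 libraries had 9443 and 9340 genes with 10 or more counts, against 9971 to 10505 in the other glucose libraries. These libraries also had the fewest read counts of the section, 12885056 and 12822917, and such gene numbers depend on depth. The compartment 1 library of plate B was nearest to compartment 3 of plate A, at a root mean square log2 difference of 0.598 over 10990 genes, and next to compartment 3 of plate C, at 0.606. From compartment 1 of plates A and C it was 1.20 and 0.777 away. Whether the compartment numbers of plate B mean the same as those of plates A and C could not be told from the labels and was not tested. Every value that joins plate B to the others across compartments 1 and 3 rests on those numbers. The main comparisons are therefore given with and without plate B, and its libraries are called by their labels.

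In all, 13 of 10990 genes (0.118%) differed among the 3 glucose compartments over all 3 plates, by the edgeR quasi-likelihood F-test with Benjamini-Hochberg adjustment at a threshold of 0.05. Of these, 7 were highest in compartment 1, 4 in compartment 2 and 2 in compartment 3. All 7 of the first kind had compartment 1 above every library of compartments 2 and 3. They were picked by a test on these same libraries, so this separation is no further evidence. All 7 had a higher mean over wheat bran than over glucose. Over beet pulp, all but NRRL3_6351 and NRRL3_9019 also had a higher mean than over glucose. On the list of bran genes defined below were 5, where all genes tested held 13.8%. For the other traits the share over all genes was not computed. Without plate B, 9 of the 13 remained among the genes called, and the 4 lost had adjusted p of 0.0502 to 0.0937 in the same test.

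**Figure D1:**
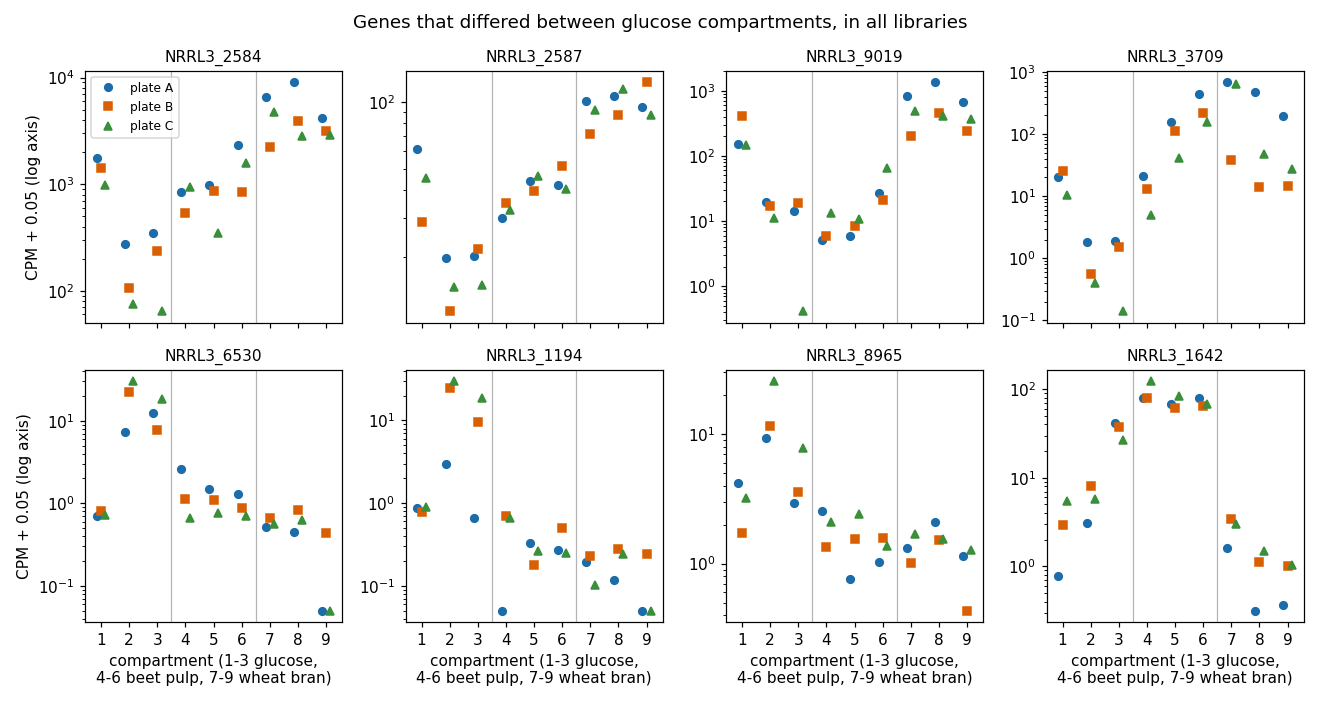
CPM (library-scaled counts) plus 0.05 on a log axis, for 8 genes in all 27 libraries by compartment, with 1 symbol per plate. The upper row shows genes highest in glucose compartment 1, whose means are higher again in each wheat bran compartment, although on plate B some wheat bran libraries of NRRL3_9019 and NRRL3_3709 lie below glucose compartment 1. In the lower row, NRRL3_6530, NRRL3_1194 and NRRL3_8965 have their highest mean in glucose compartment 2, and NRRL3_1642 is high in glucose compartment 3 and over beet pulp.

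Of the genes that passed a test of pairs, NRRL3_2584 had the largest fall out of compartment 1. Levels are CPM, that is counts scaled to a common library size with TMM factors, which correct for library composition, and since they are not per length they are compared only within a gene. On plates A, B and C it stood at 1769, 1407 and 991 CPM in compartment 1, at 273, 107 and 75.0 in compartment 2 and at 350, 236 and 64.4 in compartment 3. Compartment 1 was the highest on every plate and did not overlap with the others, while 2 and 3 overlapped. From compartment 1 to 2 the log2 fold change was -3.35 (SE 0.49), and from 1 to 3 it was -2.80 (SE 0.48), with adjusted p (edgeR quasi-likelihood, Benjamini-Hochberg) of 0.0032 and 0.0214. Over wheat bran the same gene averaged 4519 ± 2176, 5263 ± 3346 and 3427 ± 688 CPM in compartments 7, 8 and 9, and over beet pulp 775 ± 214, 730 ± 336 and 1587 ± 735 in 4, 5 and 6 (SD, n = 3 plates). The call from 1 to 2 was lost without plate B (log2 fold change -3.16) or C (-3.24), or without the compartment 2 library of either. That from 1 to 3 was lost without plate A (-3.04) or C (-2.49), or without the compartment 3 library of either. Without the plate block both were lost, with adjusted p of 0.0564 and 0.180, within 8.1e-11 to 0.355 over the alternatives of these calls.

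NRRL3_2587 shared this pattern at a smaller size. On plates A, B and C it stood at 61.2, 28.8 and 45.5 CPM in compartment 1, at 19.7, 11.3 and 14.5 in compartment 2 and at 20.2, 21.6 and 14.9 in compartment 3. Compartment 1 again lay above all 6 other glucose libraries. From 1 to 2 the log2 fold change was -1.56 (SE 0.27), with an adjusted p of 0.0206 (edgeR quasi-likelihood, Benjamini-Hochberg). From 1 to 3 it was -1.24 (SE 0.27, adjusted p 0.144). Over wheat bran its mean was 88.2 ± 14.7 to 103 ± 13.5 CPM, and over beet pulp 32.4 ± 2.57 to 44.7 ± 5.85 (SD, n = 3 plates). The call from 1 to 2 was lost on leaving out any 1 of the 3 plates, with log2 fold changes of -1.51 to -1.64. It was also lost without compartment 2 of plate B (-1.41), compartment 1 of plate C (-1.52) or compartment 2 of plate C (-1.59).

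NRRL3_9019 and NRRL3_3709, which passed the test among the compartments and were picked for display after their values were seen, were low in the section outside compartment 1. NRRL3_9019 stood at 151, 412 and 149 CPM in compartment 1 on plates A, B and C, at 19.2, 16.8 and 10.99 in compartment 2 and at 14.3, 19.0 and 0.364 in compartment 3. It reached 502 ± 309, 743 ± 530 and 429 ± 220 CPM in wheat bran compartments 7, 8 and 9, but 7.98 ± 4.40, 8.32 ± 2.46 and 37.3 ± 23.8 in beet pulp compartments 4, 5 and 6 (SD, n = 3 plates). Compartment 1 of plate B had the highest level of NRRL3_9019 in the section. By root mean square log2 difference over all genes tested, that library was nearest to compartment 3 of plates A and C. NRRL3_3709 stood at 20.7, 24.9 and 10.3 CPM in compartment 1, at 1.76, 0.515 and 0.349 in compartment 2 and at 1.82, 1.45 and 0.0911 in compartment 3. Off glucose NRRL3_3709 stood at 13.1 ± 8.13, 103 ± 57.6 and 273 ± 155 CPM in beet pulp compartments 4, 5 and 6 and 455 ± 362, 177 ± 255 and 78.7 ± 100.2 in wheat bran compartments 7, 8 and 9 (SD, n = 3 plates), and it was on neither residue list. Its edgeR quasi-likelihood adjusted p among the compartments was 0.0238 and that of NRRL3_9019 was 0.0204 by Benjamini-Hochberg. Both calls were lost without plate A (adjusted p 0.0756 and 0.0522) or C (1.00 and 0.0766), within 2.1e-06 to 1.00 over the alternatives. Of single libraries, compartment 1 or 2 of plate B and compartment 2 of plate C ended both calls. That of NRRL3_3709 was also lost without compartment 2 or 3 of plate A, without compartment 1 or 3 of plate C, and without the plate block (0.185).

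Of the genes that passed, NRRL3_6530 rose most from compartment 1 to 2. It stood at 0.654, 0.761 and 0.679 CPM in compartment 1 on plates A, B and C, at 7.27, 22.4 and 29.8 in compartment 2 and at 12.2, 7.58 and 18.3 in compartment 3. Compartment 1 was low on all 3 plates and did not overlap with the others, while compartments 2 and 3 overlapped. From 1 to 2 the log2 fold change was 4.81 (SE 0.58), and from 1 to 3 it was 4.16 (SE 0.57), with adjusted p (edgeR quasi-likelihood, Benjamini-Hochberg) of 2.8e-04 and 0.0011. Outside the glucose section its means were 0.128 ± 0.221 to 1.41 ± 0.992 CPM (SD, n = 3 plates), although it was on the list of pulp genes defined below. The call from 1 to 2 was lost without plate B (4.79) or C (4.32), and that from 1 to 3 without plate C (3.78).

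NRRL3_1194 rose from compartment 1 to 2 with less agreement between plates. It stood at 0.818, 0.723 and 0.849 CPM in compartment 1, at 2.91, 25.0 and 29.6 in compartment 2 and at 0.608, 9.55 and 18.6 in compartment 3. Plate A was low throughout, and on plates B and C compartments 2 and 3 lay above compartment 1. The log2 fold change from 1 to 2 was 4.22 (SE 0.78, adjusted p 0.0300, edgeR quasi-likelihood with Benjamini-Hochberg), and the call was lost without plate B (3.70) or C (3.57), and without any library of compartment 1 or 2 on these plates (3.79 to 4.02). Without the plate block its adjusted p was 0.0564 and with library size alone 0.0683, within 2.4e-04 to 0.999 over its alternatives. Off glucose its means did not pass 0.422 ± 0.366 CPM (SD, n = 3 plates), although it too was on the list of pulp genes.

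NRRL3_8965 and NRRL3_10661 were highest in compartment 2, the middle number of the section, and passed the test of compartment 2 against the mean of 1 and 3, as did NRRL3_6530. The 3 genes (0.0273% of 10990) all rose, and they were the only calls of that test. For NRRL3_6530 the difference rested on its low compartment 1. Its log2 fold change from 2 to 3 was only -0.65 (SE 0.47), and on plate A compartment 3 (12.2 CPM) lay above compartment 2 (7.27). NRRL3_8965 stood at 4.17, 1.67 and 3.17 CPM in compartment 1, at 9.34, 11.4 and 25.5 in compartment 2 and at 2.86, 3.53 and 7.84 in compartment 3. Its compartment 2 libraries all lay above the other 6 in the section, and its means off glucose were 0.902 ± 0.453 to 1.94 ± 0.595 CPM (SD, n = 3 plates). NRRL3_10661, picked for display after its values were seen, stood at 18.6, 44.7 and 46.9 CPM in compartment 1, at 48.8, 96.8 and 126 in compartment 2 and at 29.9, 35.4 and 61.5 in compartment 3. Compartment 2 was the highest on each plate, although the ranges overlapped between plates. The log2 difference was 2.73 (SE 0.41) for NRRL3_6530, 2.00 (SE 0.33) for NRRL3_8965 and 1.18 (SE 0.21) for NRRL3_10661, with adjusted p (edgeR quasi-likelihood, Benjamini-Hochberg) of 0.0113, 0.0161 and 0.0403. Without plate B or without plate C no gene passed this test. Leaving out compartment 2 of plate B or C, compartment 1 of plate C, or compartment 3 of plate A or B also left 0 genes, and so did scaling by library size alone. Without the plate block only NRRL3_6530 passed. Without compartment 2 of plate A, or with no filter on low counts, NRRL3_6530 and NRRL3_8965 passed and NRRL3_10661 did not.

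NRRL3_1642 was the 1 gene that separated compartment 3 from both others in tests of pairs. It stood at 0.736, 2.89 and 5.49 CPM in compartment 1 on plates A, B and C, at 3.06, 8.03 and 5.76 in compartment 2 and at 41.9, 37.3 and 26.7 in compartment 3. Compartment 3 was high on all 3 plates, with no overlap, and compartments 1 and 2 overlapped. From 1 to 3 the log2 fold change was 3.72 (SE 0.47), and from 2 to 3 it was 2.79 (SE 0.45), with adjusted p (edgeR quasi-likelihood, Benjamini-Hochberg) of 6.7e-04 and 0.0316. Over beet pulp its means were 70.1 ± 7.64 to 93.9 ± 24.6 CPM, and over wheat bran 0.751 ± 0.379 to 2.64 ± 0.960 (SD, n = 3 plates). The call from 2 to 3 was lost without plate B (3.13) or C (3.01), without compartment 2 of any plate (2.59 to 3.12), without compartment 3 of plate A (2.34) or B (2.84), with library size alone (3.08), and without the plate block (2.66, adjusted p 0.0941, within 1.1e-05 to 1.00 over its alternatives). The call from 1 to 3 was lost without plate C, at 4.57.

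NRRL3_10373, picked after its values were seen, was the other called gene with compartment 3 above all libraries of 1 and 2. It stood at 4.25, 1.77 and 5.83 CPM in compartment 3 on plates A, B and C, against 1.14, 1.14 and 0.226 in compartment 1 and 0.153, 0.206 and 0.465 in compartment 2. The compartment 2 values rest on 2, 2 and 8 read counts. Off glucose its means were 0.221 ± 0.237 to 2.17 ± 1.16 CPM (SD, n = 3 plates), and beet pulp compartment 4 reached 3.20. Its edgeR quasi-likelihood adjusted p among the compartments was 0.0238 by Benjamini-Hochberg, and it ran from 8.5e-05 to 1.00 over the alternatives. The call was lost without plate A (0.0718) or C (1.00), without compartment 2 of any plate (0.0689 to 0.107), and without compartment 3 of plate A (0.137) or C (0.229).

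By pairs, 6 genes (0.0546%) changed from compartment 1 to 2, 4 up and 2 down. From 1 to 3, 3 genes (0.0273%) changed, 2 up and 1 down, and from 2 to 3 only NRRL3_1642 rose (0.00910%). At an unadjusted p under 0.05 the counts were 837, 920 and 422, and 814 among the 3 compartments. With DESeq2 the counts were 125, 38 and 3, and 123 among the compartments. Without plate A they were 29, 27 and 7, and 53 among the compartments, and without plate C all were 0. A p above the threshold in so small a design does not show that 2 compartments are alike.

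The most counted genes of the section were not among the calls. NRRL3_1522 stood at 93946, 42396 and 94084 CPM in compartment 1 on plates A, B and C, at 123075, 194345 and 111673 in compartment 2 and at 64869, 150668 and 78693 in compartment 3. Compartment 2 was the highest on each plate, and the log2 fold change from 1 to 2 was 0.83 (SE 0.40, adjusted p 0.653, edgeR quasi-likelihood with Benjamini-Hochberg). NRRL3_1234 stood at 89932, 41026 and 13282 CPM in compartments 1, 2 and 3 of plate A. On plate B it stood at 8920, 75476 and 64895 CPM and on plate C at 36575, 33142 and 14089. The step from compartment 1 to 3 was thus downward on plates A and C and upward on plate B, and the test of that pair gave an adjusted p of 0.753.

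The same split between plates ran through much of the transcriptome. From compartment 1 to 3, 2276 genes were 2-fold or more higher and 2236 lower on plate A, 1653 and 1880 on plate B, and 1205 and 1425 on plate C. Plates A and C shared 848 of the higher genes, of which 523 were 2-fold or more lower on plate B, and 975 of the lower genes, of which 475 were 2-fold or more higher on plate B. Across genes, the changes of plates A and C correlated with an r of 0.68, those of A and B with -0.53 and those of B and C with -0.38. These r describe 10990 genes, which are not independent replicates. From 1 to 2 they were 0.48, -0.20 and 0.09, and from 2 to 3 they were 0.49, -0.08 and 0.06, in the same order.

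**Figure D2:**
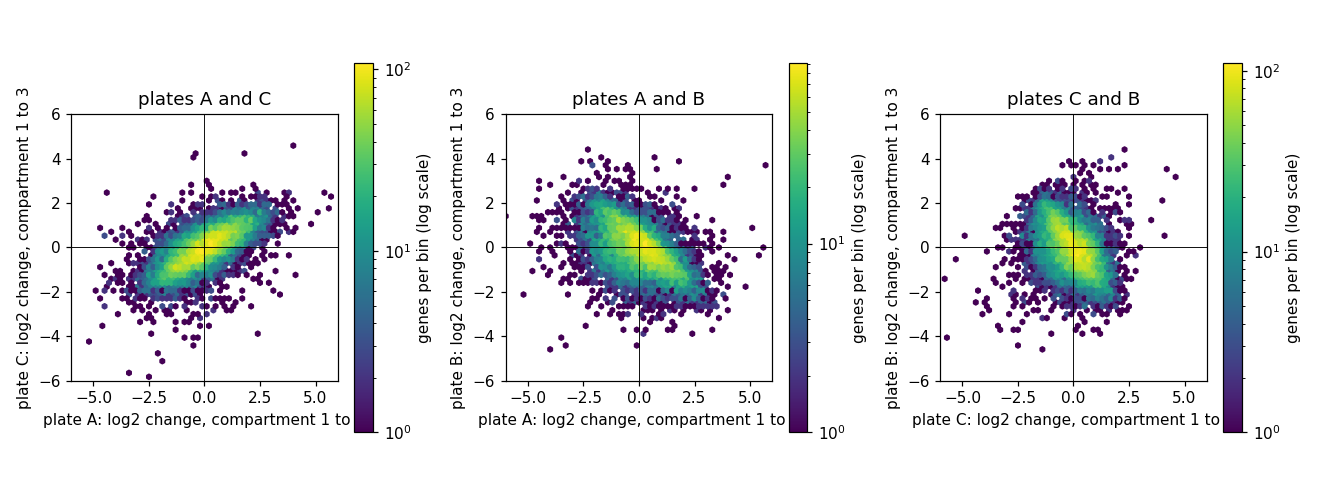
Log2 change of CPM from glucose compartment 1 to 3 for 10990 genes, 1 plate against another, with colour for the number of genes per bin on a log scale. Points run along the rising diagonal for plates A and C (r 0.68) and along the falling diagonal for plate B against A (r -0.53) or C (r -0.38).

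To describe the direction of this split, genes that differ between the plant residues were listed from the 18 libraries over beet pulp and wheat bran, with no glucose library used. Counts were summed per substrate and plate, and genes with an edgeR quasi-likelihood adjusted p under 0.05 by Benjamini-Hochberg and a 2-fold difference or more were kept. This gave 1571 bran genes (13.7% of 11482), higher over wheat bran, and 1490 pulp genes (13.0%), higher over beet pulp. The lists compare the residues with each other, so a gene on either list can be higher still over glucose. The residue score of a library is the mean log2 CPM of the bran genes minus that of the pulp genes, so a high score means a bran-like profile. The residue libraries come from the same 3 colonies.

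On plate A the residue score was 1.69, -0.14 and -1.50 in glucose compartments 1, 2 and 3. On plate C it was 0.33, -0.50 and -1.47, and on plate B it was -1.29, 0.21 and 0.70. The score thus went from bran-like to pulp-like with the compartment number on plates A and C and the other way on plate B. For scale, the means over beet pulp compartments were -1.47 ± 0.455 to -0.773 ± 0.655, and over wheat bran 1.36 ± 0.339 to 2.95 ± 0.293. Glucose compartments 1, 2 and 3 averaged 0.243 ± 1.49, -0.145 ± 0.353 and -0.759 ± 1.26 (SD, n = 3 plates). Over the 3 plates compartment 2 varied least, but between plates A and C alone compartment 3 did. The difference of compartment 3 from 1 was -1.002 on average and -3.19, 1.98 and -1.80 on plates A, B and C. The exact within-plate permutation test of the spread of the 3 compartment means gave p = 0.639, where the smallest possible is 0.0278. It ran over all orders of the compartments and has no direction, so the difference of 3 from 1 was not tested alone. Averaged over plates A and C alone the difference was -2.50, and over plates B and C alone it was 0.09.

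**Figure D3:**
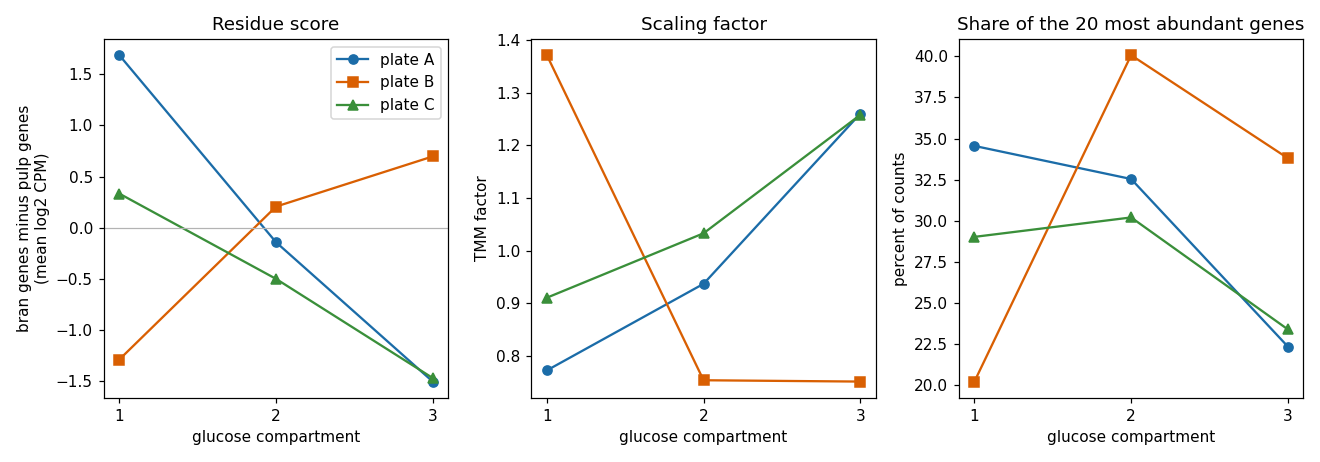
Residue score (mean log2 CPM of bran genes minus pulp genes), TMM scaling factor and share of counts in the 20 most abundant genes (percent), by glucose compartment with 1 line per plate. On plates A and C the score falls and the factor rises from compartment 1 to 3, and on plate B both run the other way.

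Other properties of the libraries also differed between compartments. On each plate the TMM factor moved against the score. The share of the 20 most abundant genes went with the score from compartment 1 to 3, but not at every step on plates B and C. The TMM factor was 0.772, 0.937 and 1.26 in compartments 1, 2 and 3 of plate A and 0.911, 1.03 and 1.26 on plate C, but 1.37, 0.754 and 0.751 on plate B. The 20 most abundant genes took 34.6%, 32.5% and 22.4% of counts on plate A, 29.0%, 30.2% and 23.4% on plate C, and 20.2%, 40.07% and 33.8% on plate B. Mean TMM factors were 1.19 ± 0.0791 to 1.46 ± 0.0915 over beet pulp and 0.551 ± 0.0954 to 0.947 ± 0.0804 over wheat bran (SD, n = 3 plates), so the residue lists themselves come from sections that differ in this factor. The part of library composition in the split was not tested. With library size alone in place of TMM factors, for the lists as well as the levels, the mean score difference of 3 from 1 was -0.93. The lists then held 597 bran and 4153 pulp genes. A library's factor shifts both means of its score nearly alike and largely cancels. This value therefore does not measure the part of library composition. In such bulk samples, fewer cells of a state and less RNA per cell cannot be told apart.

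Within a plate the listed genes differed in opposite directions. From compartment 1 to 3, the median log2 change of 1515 bran genes was -1.44 on plate A, 1.11 on plate B and -0.95 on plate C, and that of 1490 pulp genes was 1.71, -1.13 and 0.95, against 0.02, -0.07 and 0.01 for all 10990 genes. The step from 1 to 2 had bran medians of -0.80, 0.80 and -0.44 and pulp medians of 1.00, -0.90 and 0.40. The step from 2 to 3 had -0.64, 0.30 and -0.53 for bran genes and 0.72, -0.24 and 0.57 for pulp genes. Each step of a plate went the same way as its whole change. In the fit over all plates the medians from 1 to 3 were -0.48 for bran genes and 0.42 for pulp genes. By the test on that pair, 0 bran genes rose and 1 fell, and 2 pulp genes rose and 0 fell. The 2 were NRRL3_1642 and NRRL3_6530, of which NRRL3_6530 averaged 1.12 CPM over beet pulp and 11.1 over glucose. As means over plates of each gene's own change, the medians from 1 to 3 were -0.40 for bran genes and 0.53 for pulp genes. Over plates B and C alone these medians changed sign, to 0.11 and -0.12.

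Without plate B, the comparison of compartments 1 and 3 called 1681 of 10923 genes (15.4%), of which 861 rose and 820 fell by edgeR's quasi-likelihood test after Benjamini-Hochberg adjustment. Plate B was set aside after these same data showed it running against plates A and C. The calls therefore describe plates A and C alone and are conditional on that choice. On plate B, 827 of the 861 (96.1%) and 710 of the 820 (86.6%) changed with the opposite sign. The share over all genes was not computed. Across all genes the changes of plate B already correlated negatively with those of plates A (r -0.53) and C (r -0.38). The opposite signs are therefore not particular to the genes called. Among those that rose were 691 pulp genes, 46.4% of the tested pulp list, and 1 bran gene. Among those that fell were 586 bran genes, 38.9% of the tested bran list, and 0 pulp genes. Pulp genes made up 80.3% of the risers, against 13.6% of all genes tested, and bran genes 71.5% of those that fell, against 13.8%. In the same fit 274 genes (2.51%) differed among the 3 compartments, and no gene passed from 1 to 2, from 2 to 3 or for compartment 2 against the mean of the others (0%, with 1102, 880 and 227 at an unadjusted p under 0.05).

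**Figure D4:**
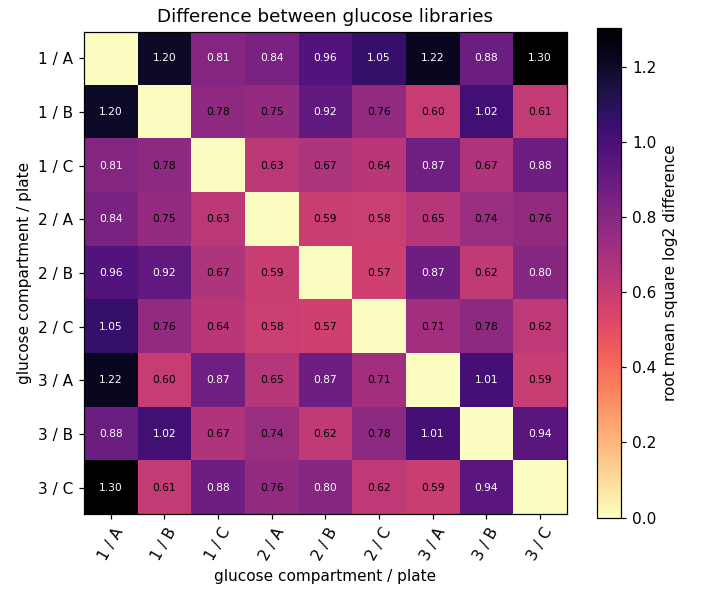
Root mean square log2 difference over 10990 genes between each pair of the 9 glucose libraries, labelled compartment / plate, with darker cells for larger differences. The compartment 2 libraries are close to each other (0.570 to 0.594), and compartment 1 of plate B is close to compartment 3 of plates A and C (0.598 and 0.606).

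Over the 3 plates, compartment 2 was the most alike between colonies, but without plate B it was nearly level with compartment 3. Its 3 libraries differed from each other by 0.570 to 0.594 in root mean square log2, against 0.777 to 1.20 in compartment 1 and 0.591 to 1.01 in compartment 3. Between plates A and C alone the difference was 0.807, 0.583 and 0.591 in compartments 1, 2 and 3. Libraries of the same plate differed by 0.620 to 1.22. All compartment 2 libraries had another compartment 2 library as their nearest neighbour, while compartment 1 of plate B was nearest to compartment 3 of plate A, compartment 3 of plate B to compartment 2 of the same plate, and compartment 1 of plate C to compartment 2 of plate A. Over the section, compartment took 27.01% of the variance of log2 CPM, plate 20.9% and the remainder, in which plates differ in how compartments differ, 52.1%. These terms hold 25%, 25% and 50% of the degrees of freedom, so the compartment share lies near what its degrees of freedom alone would give. The remainder was 20.2% in the beet pulp section and 23.7% in the wheat bran section.

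A smaller set of genes differed by 2-fold or more in the same direction on all 3 plates, counted with no test. In compartment 2 against 1 these were 35 higher (0.318% of 10990) and 92 lower genes (0.837%). In 3 against 1 there were 18 higher (0.164%) and 52 lower (0.473%), and in 3 against 2 there were 23 higher (0.209%) and 28 lower (0.255%). Of the 92 lower in 2 than in 1, 29 (31.5%) were bran genes and 2 (2.17%) pulp genes, and of the 52 lower in 3 than in 1, 21 (40.4%) were bran genes and 1 (1.92%) a pulp gene. Of the 35 and the 18 higher genes, 14 (40%) and 10 (55.6%) were pulp genes and 0 and 1 were bran genes. All genes held 13.8% bran genes and 13.6% pulp genes. In 3 against 2, 9 of the 23 higher genes were pulp genes, and of the 28 lower genes 3 were bran and 2 pulp genes.

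**Figure D5:**
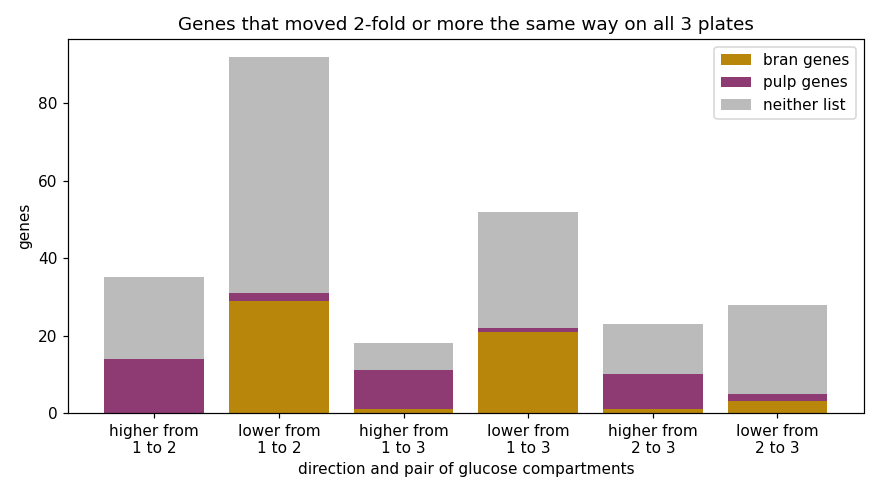
Number of genes with a 2-fold or larger change in the same direction on all 3 plates, by pair of glucose compartments and direction, split into bran genes, pulp genes and genes on neither list. Genes lower than in compartment 1 (92 and 52) outnumber those higher (35 and 18), and bran genes are found mainly among the lower ones. In the glucose section the medians of the 52 lie below those of all genes.

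The 92 genes lower in compartment 2 than in 1 had their highest medians in wheat bran compartments 7 and 8. Beet pulp compartment 6 came next, just above wheat bran compartment 9. They had a median log2 CPM of 3.98 in glucose compartment 1, 2.29 in 2 and 2.39 in 3, and 5.38, 5.17 and 4.57 in wheat bran compartments 7, 8 and 9. Over beet pulp they had 3.43, 3.97 and 4.60 in compartments 4, 5 and 6. The 35 genes higher in 2 than in 1 had 3.18, 5.05 and 4.28 in glucose compartments 1, 2 and 3, against 1.00 to 1.66 over wheat bran and 2.76 to 3.16 over beet pulp. The 18 higher in 3 than in 1 had 2.81, 4.06 and 5.07, and 5.45, 4.57 and 4.24 in beet pulp compartments 4, 5 and 6. The 52 lower in 3 than in 1 had low medians of 1.79, 0.31 and -0.25 in glucose compartments 1, 2 and 3. The 28 lower in 3 than in 2 had 0.17, 0.61 and -1.06, and the 23 higher had 2.35, 1.75 and 3.13. With a mean count of 10 or more in glucose, 38 genes were lower in 3 than in 1 and 88 in 2 than in 1. The higher genes then stayed at 18 and 35. Medians of all 10990 genes lay between 3.16 and 3.66 in every compartment.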

How the data were processed

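Whole-number read counts per gene were deposited by the authors in 1 table, with no normalization, for 11846 gene models and 27 libraries, and 0 columns belonged to no sample. The submitters' processing notes name HTSeq and DESeq2 with no version or role. Which aligner, genome build and annotation were used is not given in the sources used here. The same holds for strand and for reads shared between genes, so values of close paralogs and overlapping genes are uncertain. No molecular identifiers are mentioned, so depth speaks to counting error only. The gene table at hand, of assembly ASM285v2, holds 0 of the 11846 IDs, so pathway lists were not analysed here.

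All 27 libraries entered 1 fit in edgeR 4.0.16 (R 4.3.3) with 9 compartment groups, a plate block, TMM factors and filterByExpr, which left 10990 genes and 16 residual degrees of freedom. Quasi-likelihood F-tests were two-sided and adjusted by Benjamini-Hochberg within a comparison. Log2 CPM used a prior count of 2, and each SE was obtained from the fold change and its F value. DESeq2 1.42.0, other scalings and filters, the fit without the block, glucose libraries alone, and leaving out each plate or glucose library were the alternatives. The main fit takes its spread from all 9 groups, and alternatives that leave out 1 library keep the other groups' spread. In both, a glucose compartment is assumed to vary like the rest. The remainder was 52.1% of a variance per gene of 0.341 in the glucose section. It was 20.2% of 0.270 in the beet pulp section and 23.7% of 0.628 in the wheat bran section. How far this affects the adjusted p of the main fit was not tested.

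Plates are separate colonies and the unit of replication, and the block rests on the labels, by which a plate's libraries share 1 colony. As a check of this pairing, deviations from compartment means correlated between glucose libraries of a plate with a mean r of 0.0378 over 9 pairs, from -0.724 to 0.447, with 5 over 0.1. As a check for a library deposited more than once, chi-square per degree of freedom was computed between glucose libraries and was 45.2 at its lowest. For each comparison of pairs, and for compartment 2 against the mean of 1 and 3, up to 2 rising and 2 falling IDs were named, those with an adjusted p under 0.05 and the largest change, with the 2 genes of highest mean CPM. A further 4 were named after their values were seen. The libraries, lists, tests and naming rule were chosen with earlier results of these data known.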

Additional observations from a re-analysis of the deposited data

How the results depend on the processing

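Counts of genes called depended strongly on the tool and the plates. In the order among the compartments, 1 to 2, 1 to 3, 2 to 3 and 2 against the mean of 1 and 3, they were 123, 125, 38, 3 and 20 with DESeq2 and 0 in each with the glucose libraries alone, which leave 4 residual degrees of freedom. Without the replicate block on plate they were 8, 2, 2, 0 and 1. On leaving out plates or single glucose libraries they ran over 0 to 274, 0 to 54, 0 to 1681, 0 to 7 and 0 to 10. Without plate C all were 0, and without plate A they were 53, 29, 27, 7 and 9. Without compartment 1 of plate A 54 genes passed from 1 to 2, and without compartment 1 of plate B 49 passed from 1 to 3. With library size alone, which moved the median of all genes to -0.20, 0.11, 0.29 and -0.24 in the 4 comparisons after the first, 0 genes passed in the last 2. Calls named by the rule, which each have a fold change, kept its direction in the alternatives run and were all lost with the glucose libraries alone. With the residue lists drawn again from the remaining plates, the score difference of compartment 3 from 1 ran from -2.40 without plate B to 0.11 without plate A, where it reversed. With library size alone the residue lists held 597 bran and 4153 pulp genes. Genes moved the same way on all plates were 18 up from 1 to 2, 49 up from 2 to 3 and 16 down from 2 to 3 with library size alone, 84 down from 1 to 3 and 53 down from 2 to 3 with a prior count of 0.5, and 16 down from 2 to 3 with a mean count of 10 or more. For these the cause was not tested. Variance shares stayed within 1.5 times their value.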
